A study of Mus musculus with 20 samples.

Results

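Genes of oligodendrocytes and of the myelin they make were followed in the arcuate nucleus (ARC) of mice given corticosterone (Cort). The 29 genes were chosen by symbol, as 24 genes of mature, myelin-forming cells and 5 genes of precursors and the lineage as a whole (Pdgfra, Cspg4, Olig1, Olig2 and Sox10). The choice was made with earlier results of these data known. All 29 were found among the 22048 genes counted. RNA-seq had been performed on ARC tissue cut out by laser capture from frozen brain sections of male C57BL6/J mice, 10 weeks old by the labels. Vehicle mice drank water with 1% ethanol, and Cort mice drank the same with 75 μg/ml of Cort, the main glucocorticoid of the mouse. In the 2 day dataset mice were killed after 2 days of treatment, and in the 4 week dataset after 4 weeks, a fast of 16 h and 24 h of refeeding, with the treatment kept up throughout. Each of the 4 groups held 5 samples. From each dataset the authors left out 2 vehicle samples and 1 Cort sample as outliers of a principal component plot, so that 3 vehicle and 4 Cort samples were kept. The left-out samples were vehicle C07 and C09 and Cort C08 at 2 days, and vehicle C01 and C05 and Cort C06 at 4 weeks. Sample names were numbered separately in each dataset, so that C01 at 2 days and C01 at 4 weeks are different mice. Comparisons rest on the 7 kept samples unless all 10 are named.

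Total counts per sample ran from 2487063 to 5748223 at 2 days and from 1065776 to 5196364 at 4 weeks, so that 3 counts, taken as the floor of detection, came to 0.512 to 1.19 CPM (counts scaled to library size) and 0.619 to 2.75 CPM, respectively. These floors take in counting error alone, as amplified copies of a molecule are not separate molecules. The kept Cort and vehicle samples were compared within a dataset by edgeR's quasi-likelihood test over all genes, with Benjamini-Hochberg adjustment and a threshold of Padj below 0.1. Unadjusted P below 0.05 was counted as well. The p-values set the difference between groups against the spread between these samples, which edgeR estimates in part from all genes.

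Oligodendrocytes wrap axons in myelin, a stack of membrane that is rich in cholesterol and in galactolipids and is held compact by a small set of abundant proteins. They arise from dividing precursors that carry the PDGF receptor alpha and the proteoglycan NG2, and the factors Olig1, Olig2 and Sox10 mark the lineage from the precursor to the mature cell. Glucocorticoids are known to act on these cells through the glucocorticoid receptor. In the ARC, at the base of the hypothalamus, myelinated fibres are sparse but precursors are spread through the tissue. In a bulk sample these RNAs can change, among other reasons, with the number of such cells or with the RNA per cell. The counts cannot tell these apart.

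The label of an oligodendrocyte signal was checked against the defining genes, whose levels were uneven. Mbp (myelin basic protein, which holds the inner faces of the membrane together) was between 341 and 1142 CPM in the 10 samples at 2 days and between 106 and 686 CPM at 4 weeks. Levels were also compared per kilobase of exon in the kept vehicle samples. The length used was that of all annotated exons of a gene merged, 8469 bases for Mbp and 2162 for Olig1. It can be longer than the transcripts present, so the order of the members depends in part on it. On this scale Olig1 was the highest member at 2 days, at 49.1 CPM per kb. Mbp followed with 42.7, Qdpr with 42.4 and Cryab with 41.2 CPM per kb. At 4 weeks Mbp was the highest, at 67.7 CPM per kb, followed by Mal with 43.9 and Cnp with 39.5 CPM per kb, and Olig1 stood at 21.6 CPM per kb. The lowest 3 in both datasets were Aspa, Opalin and Gjb1, the last with 0.175 CPM per kb at 2 days and 0.0874 at 4 weeks. At 2 days 5 members had a sample at or below 3 counts. At 4 weeks 16 members did, among them Opalin and Gjb1 in 8 samples each and Mag, Aspa and Myrf in 4 samples each.

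Reads could be shared with other annotated genes for some members. By exon bases in GENCODE M21 (GRCm38), 63.5% of Trf overlaps Gm20425 on the same strand. On the opposite strand, 18.6% of Qdpr overlaps Gm42413, 17.0% of Cryab overlaps Hspb2 and 12.6% of Bcas1 overlaps its antisense genes, and whether the counting used strand is not given in the sources used here. The values of these 4 genes are uncertain to that extent. The other members shared at most 7.26% of their exon bases.

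The member that passed the threshold, Mobp, and the member with the largest fitted decrease, Gjc3, are shown here by the sequence before their start sites, to place them in the genome. Mobp (ENSMUSG00000032517) lies on the plus strand at chr9:120149707-120181484 and Gjc3 (ENSMUSG00000056966) on the minus strand at chr5:137953461-137963098 (GRCm38, GENCODE M21). RefSeq promoters of the same build were held for 19 of the 29 members, in 27 entries, and the 250 bases before the RefSeq start were searched on both strands. The stretch of Mobp at chr9:120149492-120149706 holds positions -250 to -36, since the last 35 bases are annotated exon in GENCODE. That of Gjc3 at chr5:137963099-137963348 holds positions -250 to -1. Capitals mark CTTTGT in Mobp, the reverse complement of the SOX motif ACAAAG, and the E-box CAGATG in Gjc3.
Mobp: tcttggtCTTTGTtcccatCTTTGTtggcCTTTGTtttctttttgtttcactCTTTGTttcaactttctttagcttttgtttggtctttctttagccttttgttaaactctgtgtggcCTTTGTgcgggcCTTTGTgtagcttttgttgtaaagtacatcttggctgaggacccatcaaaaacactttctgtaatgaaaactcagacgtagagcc
Gjc3: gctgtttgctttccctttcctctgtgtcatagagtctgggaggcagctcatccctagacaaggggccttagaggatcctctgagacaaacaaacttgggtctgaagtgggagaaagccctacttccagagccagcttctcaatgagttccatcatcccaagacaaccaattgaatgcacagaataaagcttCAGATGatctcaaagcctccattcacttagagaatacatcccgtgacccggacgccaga

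Mobp held 6 copies of CTTTGT that do not overlap, beginning at positions -243, -231, -221, -198, -132 and -120 from the RefSeq start. ACAAAG on either strand was found in 16.5% of the 32851 RefSeq promoters of that length, and 1 of these promoters, that of Mobp, held 6 copies. Among the members with a promoter it was also found in Cnp, Gjb1, Mag, Opalin and Tspan2. Gjc3 held CAGATG once, at position -59, a motif found in 14.4% of promoters and in 7 members. The glucocorticoid response element, GNACA and TGTNC with 3 bases between them, was found in 0.387% of promoters and in 0 of the 27 member promoters. These matches are a description of the letters.

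The 2 day comparison asked which ARC genes respond to a short course of Cort. Of the 29 members 27 passed the filter on low counts (Aspa and Gjb1 did not), and 1 of these, Mobp, passed Padj below 0.1, against 0.065% of all 12309 genes tested. Mobp encodes a small basic protein of compact central myelin. Its fitted level with 2 days of Cort was 3.29-fold that of vehicle over the kept samples. Over all 10 samples it was 1.77-fold (Padj = 0.936 by edgeR). Unadjusted P was below 0.05 for 3 members higher with Cort (Mobp, Mbp and Gsn; 3.14% of all genes) and for 1 lower (Sox10; 2.83% of all genes), together 5.97% of all genes. Of the 22 mature members tested, 16 had a fitted level above vehicle and 6 below, with a median log2 fold change of 0.38 beside 0.02 over all genes, of which 52.1% were above. The 5 precursor and lineage members had 2 above and 3 below, with a median of -0.01.

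At 2 days Mobp measured 43.5, 78.7 and 45.5 CPM in vehicle samples C02, C04 and C05 and 174, 169.7, 171 and 217 CPM in Cort samples C01, C03, C06 and C10, with 326 and 100.1 CPM in the left-out vehicle samples C07 and C09 and 311 CPM in the left-out Cort sample C08. The lowest kept Cort sample was above the highest kept vehicle sample, with 55.9 ± 19.7 CPM with vehicle (SD, n = 3) and 183 ± 22.8 CPM with Cort (SD, n = 4) (log2 fold change 1.72, standard error 0.23, Padj = 0.00324 by edgeR). The left-out vehicle sample C07 was above every Cort sample, so the groups overlapped when all 10 samples were compared. In that fit the log2 fold change of Mobp was 0.82 with Padj = 0.936 by edgeR, and 0 of 27 members passed the threshold, beside 0.0167% of all genes. An unadjusted P below 0.05 was then found for 5 members, all of them mature (Aspa, Car2, Cldn11, Fa2h and Mobp), beside 5.28% of all genes, and 12 mature members were above vehicle and 10 below, beside 48.1% of all genes above. Leaving out each kept sample in turn, Mobp was called in 7 of 7 fits, with log2 fold changes from 1.57 to 2.05. At 2 days Mbp measured 341, 396 and 349 CPM in vehicle samples C02, C04 and C05 and 421, 362, 638 and 699 CPM in Cort samples C01, C03, C06 and C10, with 1142 and 739.5 CPM in the left-out vehicle samples C07 and C09 and 1036 CPM in the left-out Cort sample C08. Mbp gave log2 fold change 0.56, standard error 0.18, Padj = 0.581 by edgeR, and its groups overlapped, since Cort sample C03 fell within the vehicle range. The left-out vehicle samples held more Mbp than the kept Cort samples.

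Of the 10 compact and adhesive myelin proteins, 9 had a fitted level above vehicle at 2 days and 1 below, but the kept groups overlapped for all except Mobp. Cnp, which keeps cytoplasm-filled channels open in myelin, was 111 to 150.3 CPM with vehicle and 81.3 to 156 CPM with Cort. Mal, a membrane-sorting proteolipid, was 28.3 to 40.1 CPM with vehicle and 29.3 to 62.3 CPM with Cort. Tspan2, a tetraspanin, was 79.9 to 127 CPM with vehicle and 65.7 to 118 CPM with Cort, and its fitted change was 0.02 on the log2 scale. At 2 days Mag measured 6.47, 6.68 and 6.51 CPM in vehicle samples C02, C04 and C05 and 34.7, 4.71, 12.3 and 5.17 CPM in Cort samples C01, C03, C06 and C10, with 3.04 and 5.42 CPM in the left-out vehicle samples C07 and C09 and 4.505 CPM in the left-out Cort sample C08. Mag is the adhesion molecule of the layer facing the axon, and the kept vehicle samples lay close together while Cort sample C01 stood above all others. At 2 days Mog measured 4.23, 4.74 and 1.83 CPM in vehicle samples C02, C04 and C05 and 14.2, 3.37, 7.68 and 5.97 CPM in Cort samples C01, C03, C06 and C10, with 24.3 and 15.7 CPM in the left-out vehicle samples C07 and C09 and 1.23 CPM in the left-out Cort sample C08. Mog sits on the outer surface of the sheath and was at or under 24.3 CPM in every sample, with the left-out vehicle samples at the top. Neither gave an unadjusted P below 0.05 (log2 fold change 1.14, standard error 0.67, Padj = 0.8804 for Mag; log2 fold change 1.13, standard error 0.76, Padj = 0.904 for Mog, by edgeR). Claudin 11 (Cldn11), which seals the sheath with tight junctions, was 1.83 to 14.4 CPM with vehicle and 4.71 to 25.01 CPM with Cort. Ermn, a cytoskeletal protein of mature cells, was 6.47 to 13.4 CPM with vehicle and 4.47 to 17.1 CPM with Cort. Opalin, a sialylated membrane protein of the same cells, was 0.249 to 4.27 CPM with vehicle and 0.674 to 8.75 CPM with Cort.

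Of the 4 lipid enzymes and transporters tested at 2 days, 1 had a fitted level above vehicle and 3 below, with 0 at an unadjusted P below 0.05. Fa2h, the enzyme that adds the hydroxyl group to the fatty acids of myelin galactolipids, was 13.9 to 26.5 CPM with vehicle and 2.36 to 13.1 CPM with Cort over all 10 samples, and every Cort sample was below every vehicle sample. It was chosen for mention after its values were seen. The exact 2-sided permutation test of all 10 samples gave P = 0.00794, the smallest that 5 against 5 can give and 1 of 58 such tests made over the members and datasets, while edgeR gave a log2 fold change of -1.24 with Padj = 0.923. Over all 10 samples 1 of the 27 members tested did not overlap between groups, beside 0.801% of all genes. At 2 days Ugt8a measured 28.9, 15.5 and 6.91 CPM in vehicle samples C02, C04 and C05 and 15.4, 7.75, 14.8 and 19.1 CPM in Cort samples C01, C03, C06 and C10, with 4.45 and 13.7 CPM in the left-out vehicle samples C07 and C09 and 10.6 CPM in the left-out Cort sample C08. Ugt8a makes the galactosylceramide of myelin, and its Cort samples all lay within the vehicle range. At 2 days Abca2 measured 132, 145 and 198 CPM in vehicle samples C02, C04 and C05 and 141, 109, 97.2 and 136 CPM in Cort samples C01, C03, C06 and C10, with 91.9 and 92.98 CPM in the left-out vehicle samples C07 and C09 and 189 CPM in the left-out Cort sample C08. Abca2 is a lipid transporter of the endolysosome, and here too the groups overlapped (log2 fold change -0.38, standard error 0.20, Padj = 0.862 by edgeR). Enpp2, which makes lysophosphatidic acid, was 72.6 to 113 CPM with vehicle and 85.5 to 103 CPM with Cort. Aspa, which frees acetate from N-acetylaspartate for lipid synthesis, was 0.249 to 11.6 CPM with vehicle and 0.796 to 2.56 CPM with Cort.

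The connexins join oligodendrocytes to each other and to astrocytes. At 2 days Gjc3 measured 17.2, 24.8 and 41.5 CPM in vehicle samples C02, C04 and C05 and 53.9, 37.04, 44.7 and 27.05 CPM in Cort samples C01, C03, C06 and C10, with 29.6 and 91.8 CPM in the left-out vehicle samples C07 and C09 and 41.98 CPM in the left-out Cort sample C08. The Gjc3 groups overlapped (log2 fold change 0.56, standard error 0.36, Padj = 0.889 by edgeR), and the left-out vehicle sample C09 was the highest. Gjb1 was near the floor, at 0 to 1.14 CPM with vehicle and 1.54 to 5.72 CPM with Cort over all 10 samples. All 5 Cort samples were above all 5 vehicle samples (exact 2-sided permutation test, P = 0.00794, another of the tests counted for Fa2h). Gjb1 was low in both groups, with a median of 1.64 CPM in the kept Cort samples, and did not pass the filter. Among the other genes rich in these cells, Gsn (gelsolin, which cuts actin filaments) was the highest ranked. At 2 days Gsn measured 11.4, 11.2 and 5.69 CPM in vehicle samples C02, C04 and C05 and 16.2, 33.3, 14.5 and 19.5 CPM in Cort samples C01, C03, C06 and C10, with 16.6 and 7.701 CPM in the left-out vehicle samples C07 and C09 and 10.6 CPM in the left-out Cort sample C08. Its kept groups did not overlap, with log2 fold change 1.15, standard error 0.49, Padj = 0.792 by edgeR, but the left-out vehicle sample C07 lay among the Cort samples. In all, 4 of the 27 members tested did not overlap between the kept groups (Mobp and Gsn higher, Fa2h and Sox10 lower), beside 6.63% of all genes. At 2 days Trf measured 2.99, 6.47 and 3.05 CPM in vehicle samples C02, C04 and C05 and 9.22, 4.38, 6.25 and 2.78 CPM in Cort samples C01, C03, C06 and C10, with 5.26 and 0.5704 CPM in the left-out vehicle samples C07 and C09 and 3.07 CPM in the left-out Cort sample C08. Trf, the transferrin that carries iron, was low in every sample and overlapped between groups. Car2 (carbonic anhydrase 2) was 35.1 to 62.6 CPM with vehicle and 50.01 to 98.6 CPM with Cort. Qdpr, which recycles tetrahydrobiopterin, was 69.7 to 86.1 CPM with vehicle and 45.1 to 87.9 CPM with Cort. Cryab, a small heat shock protein, was 52.4 to 69.7 CPM with vehicle and 39.5 to 75.3 CPM with Cort, and Bcas1, a marker of cells that have begun to make myelin, was 58.8 to 78.4 CPM with vehicle and 35.7 to 84.7 CPM with Cort.

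Of the 4 lineage transcription factors at 2 days, 2 had a fitted level above vehicle and 2 below over the kept samples, and 0 above and 4 below over all 10 samples. At 2 days Sox10 measured 28.6, 18.3 and 16.1 CPM in vehicle samples C02, C04 and C05 and 8.36, 3.37, 5.18 and 15.9 CPM in Cort samples C01, C03, C06 and C10, with 5.67 and 15.4 CPM in the left-out vehicle samples C07 and C09 and 8.19 CPM in the left-out Cort sample C08. Sox10, which drives the precursor program and later the myelin genes, was lower in all kept Cort samples than in the kept vehicle samples, though Cort C10 and vehicle C05 were nearly level (log2 fold change -1.36, standard error 0.55, Padj = 0.758 by edgeR). The left-out vehicle samples reached into the Cort range, and over all 10 samples the log2 fold change was -1.03 with Padj = 0.952 by edgeR. At 2 days Olig1 measured 77.1, 106 and 136 CPM in vehicle samples C02, C04 and C05 and 121, 92.9, 93.9 and 111 CPM in Cort samples C01, C03, C06 and C10, with 174 and 107 CPM in the left-out vehicle samples C07 and C09 and 127 CPM in the left-out Cort sample C08. The Olig1 groups overlapped, with 106 ± 29.4 CPM with vehicle (SD, n = 3) and 105 ± 13.7 CPM with Cort (SD, n = 4). Olig2 was 9.48 to 27.2 CPM with vehicle and 13.5 to 22.9 CPM with Cort. At 2 days Myrf measured 5.97, 8.41 and 4.88 CPM in vehicle samples C02, C04 and C05 and 7.34, 12.8, 8.04 and 1.99 CPM in Cort samples C01, C03, C06 and C10, with 11.1 and 13.1 CPM in the left-out vehicle samples C07 and C09 and 4.095 CPM in the left-out Cort sample C08. Myrf, the factor that switches on the myelin genes, overlapped between groups. At 2 days Pdgfra measured 47.8, 69.2 and 78.9 CPM in vehicle samples C02, C04 and C05 and 59.1, 35.02, 59.1 and 101 CPM in Cort samples C01, C03, C06 and C10, with 37.9 and 28.5 CPM in the left-out vehicle samples C07 and C09 and 49.96 CPM in the left-out Cort sample C08. At 2 days Cspg4 measured 2.49, 13.8 and 12.8 CPM in vehicle samples C02, C04 and C05 and 1.02, 16.8, 21.8 and 11.5 CPM in Cort samples C01, C03, C06 and C10, with 13.2 and 11.4 CPM in the left-out vehicle samples C07 and C09 and 13.3 CPM in the left-out Cort sample C08. Pdgfra, the growth factor receptor of precursors, and Cspg4, which encodes NG2, overlapped between the groups as well. Their fitted log2 fold changes were -0.04 (standard error 0.31) and 0.40 (standard error 0.74).

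**Figure D1:**
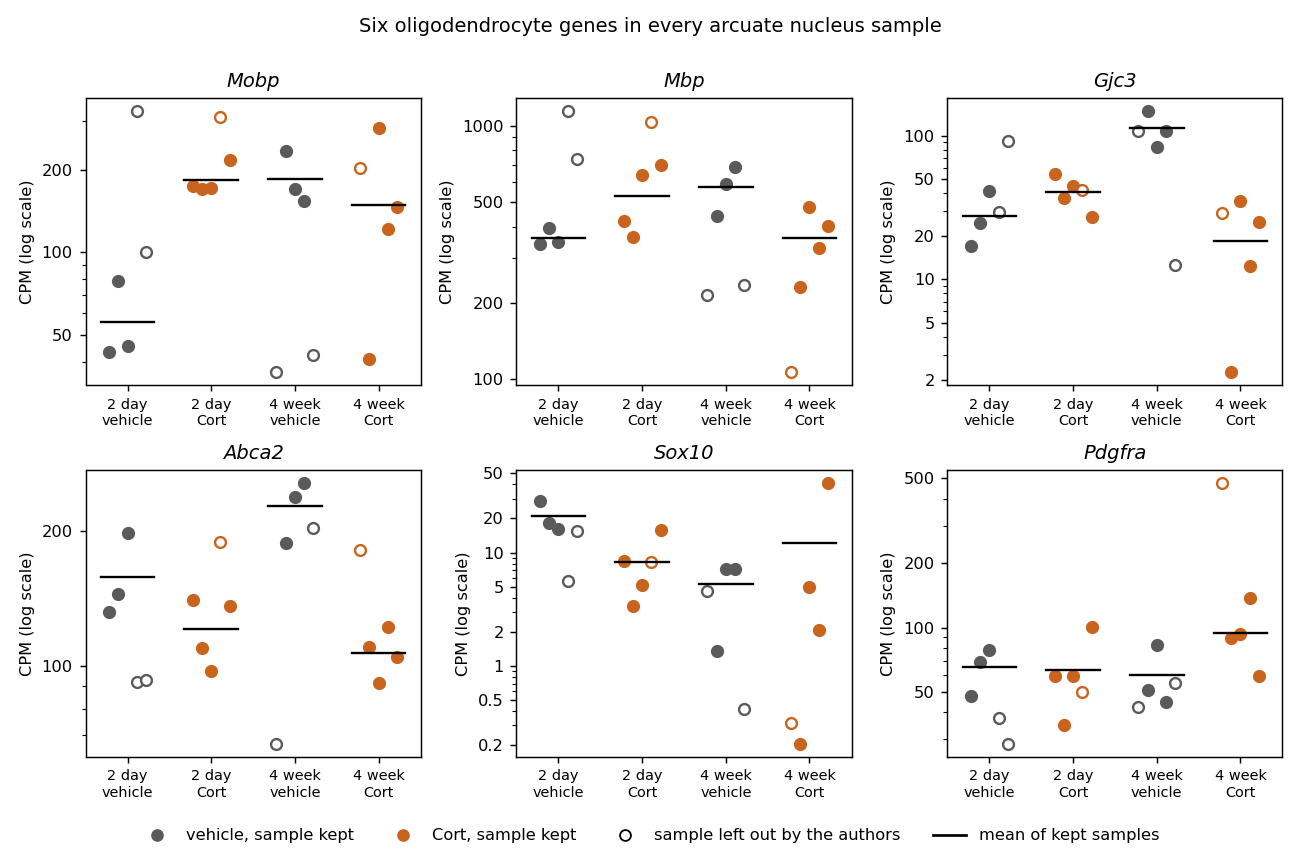
CPM of Mobp, Mbp, Gjc3, Abca2, Sox10 and Pdgfra (y axes, log scale) in each of the 20 samples, by group (x axis). Filled points are kept samples, open points the samples left out by the authors, and bars the mean of the kept samples. Kept Mobp samples at 2 days lie between 43.5 and 78.7 CPM with vehicle and between 169.7 and 217 CPM with Cort, and the open vehicle point above them is C07 at 326 CPM. Gjc3 at 4 weeks lies between 82.8 and 147.8 CPM in the kept vehicle samples and between 2.27 and 35 CPM in the kept Cort samples.

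The 4 week comparison asked what a longer course of Cort had done to the same genes. Of the 26 members that passed the filter (Aspa, Opalin and Gjb1 did not), 0 passed Padj below 0.1 by edgeR, beside 0.0446% of all 11211 genes, and 3 had an unadjusted P below 0.05. All 3 were mature members lower with Cort (Gjc3, Abca2 and Mbp), beside 1.95% of all genes lower and 4.91% in either direction. With DESeq2 on the same samples 1 member, Gjc3, passed (Padj = 0.0686), and 43 of all genes did. Of the 21 mature members tested, 5 had a fitted level above vehicle and 16 below, with a median log2 fold change of -0.68 beside 0.04 over all genes, of which 48.1% were below. The 5 precursor and lineage members were all above, with a median of 0.81, and none of the 5 had an unadjusted P below 0.05. Over all 10 samples 6 mature members were above and 15 below, 4 of the 5 precursor and lineage members were above, and 0 members passed the threshold, beside 0.00962% of all genes. Gjc3 (lower) and Pdgfra (higher) then had an unadjusted P below 0.05, beside 4.9% of all genes, and 49.5% of all genes were below vehicle. No member was free of overlap between all 10 samples, beside 0.942% of all genes.

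At 4 weeks Gjc3 measured 148, 82.8 and 107 CPM in vehicle samples C02, C03 and C04 and 2.27, 35, 12.4 and 24.9 CPM in Cort samples C07, C08, C09 and C10, with 108 and 12.6 CPM in the left-out vehicle samples C01 and C05 and 28.96 CPM in the left-out Cort sample C06. Every kept Cort sample was below every kept vehicle sample for this connexin, with 113 ± 32.8 CPM with vehicle (SD, n = 3) and 18.6 ± 14.3 CPM with Cort (SD, n = 4) (log2 fold change -2.60, standard error 0.72, Padj = 0.889 by edgeR). The left-out vehicle sample C05 fell among the Cort samples, and the fit over all 10 samples gave log2 fold change -2.16, standard error 0.73, Padj = 0.968. The other connexin, Gjb1, had no counts in 6 samples and reached 33.05 CPM in the left-out vehicle sample C01. At 4 weeks Abca2 measured 188, 238 and 256 CPM in vehicle samples C02, C03 and C04 and 110.4, 91.4, 122 and 105 CPM in Cort samples C07, C08, C09 and C10, with 67.01 and 203 CPM in the left-out vehicle samples C01 and C05 and 182 CPM in the left-out Cort sample C06. The kept groups did not overlap for this lipid transporter (log2 fold change -1.10, standard error 0.32, Padj = 0.889 by edgeR), and both the lowest vehicle sample and the highest Cort sample were left-out samples. At 4 weeks Ugt8a measured 47.01, 30.96 and 77.02 CPM in vehicle samples C02, C03 and C04 and 24.1, 13.6, 28.9 and 30.1 CPM in Cort samples C07, C08, C09 and C10, with 25.7 and 25.99 CPM in the left-out vehicle samples C01 and C05 and 22.4 CPM in the left-out Cort sample C06. The kept groups of this galactolipid enzyme did not overlap either, with log2 fold change -1.11, standard error 0.68, Padj = 0.9904. Enpp2 was 113 to 152 CPM with vehicle and 51.7 to 110.3 CPM with Cort. These 4 genes made up the 4 of 26 members whose kept groups did not overlap, all lower with Cort, beside 3.3% of all genes lower and 6.53% in either direction. Fa2h was 1.69 to 31.4 CPM with vehicle and 10.8 to 21.9 CPM with Cort, and Aspa was 1.01 to 14.8 CPM with vehicle and 1.23 to 26.8 CPM with Cort.

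At 4 weeks Mbp measured 442, 591 and 686 CPM in vehicle samples C02, C03 and C04 and 231, 476, 330.3 and 404 CPM in Cort samples C07, C08, C09 and C10, with 215 and 236 CPM in the left-out vehicle samples C01 and C05 and 106 CPM in the left-out Cort sample C06. Mbp overlapped between the kept groups at the level of vehicle sample C02, with 573 ± 123 CPM with vehicle (SD, n = 3) and 360.3 ± 105 CPM with Cort (SD, n = 4) (log2 fold change -0.68, standard error 0.27, Padj = 0.9904 by edgeR). At 4 weeks Mobp measured 234, 169.7 and 154 CPM in vehicle samples C02, C03 and C04 and 40.8, 285, 122 and 146 CPM in Cort samples C07, C08, C09 and C10, with 36.7 and 42.3 CPM in the left-out vehicle samples C01 and C05 and 202 CPM in the left-out Cort sample C06. The Cort samples of Mobp spread both below and above the vehicle samples (log2 fold change -0.34, standard error 0.48). Of the 9 compact and adhesive proteins tested at 4 weeks, 2 had a fitted level above vehicle and 7 below. Cnp was 118 to 166 CPM with vehicle and 74.7 to 139 CPM with Cort, Mal was 44.98 to 212 CPM with vehicle and 50.1 to 84.5 CPM with Cort and Tspan2 was 117 to 172 CPM with vehicle and 72.1 to 215 CPM with Cort. At 4 weeks Mag measured 19.3, 10.5 and 4.93 CPM in vehicle samples C02, C03 and C04 and 0.206, 30.7, 0 and 3.996 CPM in Cort samples C07, C08, C09 and C10, with 0 and 21.8 CPM in the left-out vehicle samples C01 and C05 and 0 CPM in the left-out Cort sample C06. At 4 weeks Mog measured 24.01, 4.02 and 1.34 CPM in vehicle samples C02, C03 and C04 and 4.74, 30.5, 0 and 35.7 CPM in Cort samples C07, C08, C09 and C10, with 24.8 and 5.03 CPM in the left-out vehicle samples C01 and C05 and 0 CPM in the left-out Cort sample C06. For both, the kept Cort samples spread widely and the kept vehicle samples lay within their range. Cldn11 was 6.76 to 35.8 CPM with vehicle and 1.55 to 28.6 CPM with Cort, Ermn was 6.72 to 54.3 CPM with vehicle and 17.01 to 96.8 CPM with Cort, and Opalin had no counts in 7 samples.

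At 4 weeks Gsn measured 6.09, 5.63 and 8.06 CPM in vehicle samples C02, C03 and C04 and 7.84, 4.52, 6.18 and 13.8 CPM in Cort samples C07, C08, C09 and C10, with 0 and 103 CPM in the left-out vehicle samples C01 and C05 and 0 CPM in the left-out Cort sample C06. The highest Gsn value was in the left-out vehicle sample C05, and the kept groups overlapped (log2 fold change 0.29, standard error 1.22). At 4 weeks Trf measured 9.13, 23.7 and 3.13 CPM in vehicle samples C02, C03 and C04 and 1.24, 3.81, 1.03 and 14.4 CPM in Cort samples C07, C08, C09 and C10, with 0.918 and 15.9 CPM in the left-out vehicle samples C01 and C05 and 0 CPM in the left-out Cort sample C06. The Trf groups overlapped. Car2 was 16.9 to 34.6 CPM with vehicle and 17.8 to 93.3 CPM with Cort, Qdpr was 23.3 to 88.9 CPM with vehicle and 5.24 to 72.5 CPM with Cort, Cryab was 21.5 to 97.7 CPM with vehicle and 15.7 to 83.6 CPM with Cort and Bcas1 was 37.4 to 120.5 CPM with vehicle and 10.1 to 83.6 CPM with Cort. At 4 weeks Myrf measured 4.73, 28.1 and 0.448 CPM in vehicle samples C02, C03 and C04 and 0, 4.76, 4.64 and 12.3 CPM in Cort samples C07, C08, C09 and C10, with 1.84 and 0.419 CPM in the left-out vehicle samples C01 and C05 and 29.9 CPM in the left-out Cort sample C06. At 4 weeks Sox10 measured 1.35, 7.24 and 7.16 CPM in vehicle samples C02, C03 and C04 and 0.206, 5.0, 2.06 and 41.2 CPM in Cort samples C07, C08, C09 and C10, with 4.59 and 0.419 CPM in the left-out vehicle samples C01 and C05 and 0.315 CPM in the left-out Cort sample C06. Myrf was at or below 3 counts in 4 of the 10 samples and Sox10 in 3, and the groups of both overlapped. At 4 weeks Olig1 measured 49.03, 45.8 and 45.2 CPM in vehicle samples C02, C03 and C04 and 37.1, 65, 60.8 and 35.97 CPM in Cort samples C07, C08, C09 and C10, with 9.18 and 262 CPM in the left-out vehicle samples C01 and C05 and 26.1 CPM in the left-out Cort sample C06. The 3 kept vehicle samples of Olig1 lay close together, within the range of Cort, while the left-out vehicle sample C05 was far above. Olig2 was 3.62 to 16.9 CPM with vehicle and 0.619 to 43.8 CPM with Cort. At 4 weeks Pdgfra measured 51.1, 83.2 and 44.8 CPM in vehicle samples C02, C03 and C04 and 88.9, 93.1, 137 and 59.02 CPM in Cort samples C07, C08, C09 and C10, with 42.2 and 54.9 CPM in the left-out vehicle samples C01 and C05 and 477 CPM in the left-out Cort sample C06. Pdgfra was higher in 3 of the 4 kept Cort samples than in all kept vehicle samples (log2 fold change 0.65, standard error 0.48, Padj = 0.9904 by edgeR). The left-out Cort sample C06 was the highest of all, and the fit over all 10 samples gave log2 fold change 1.62, standard error 0.53, Padj = 0.968 by edgeR. The exact 2-sided permutation test of all 10 samples gave P = 0.0159 for Pdgfra, another of the tests counted for Fa2h. The same exact 2-sided permutation test gave P = 0.0317 for Gjc3 at 4 weeks. By the exact 2-sided permutation test of all 10 samples, P was below 0.05 for 2 of 29 members in each dataset. The share of all genes below 0.05 by this exact permutation test was not determined. At 4 weeks Cspg4 measured 0.676, 49.5 and 8.96 CPM in vehicle samples C02, C03 and C04 and 55.9, 58.1, 19.6 and 5.84 CPM in Cort samples C07, C08, C09 and C10, with 41.3 and 15.1 CPM in the left-out vehicle samples C01 and C05 and 0 CPM in the left-out Cort sample C06. Cspg4 overlapped between groups, with low and high samples in each.

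**Figure D2:**
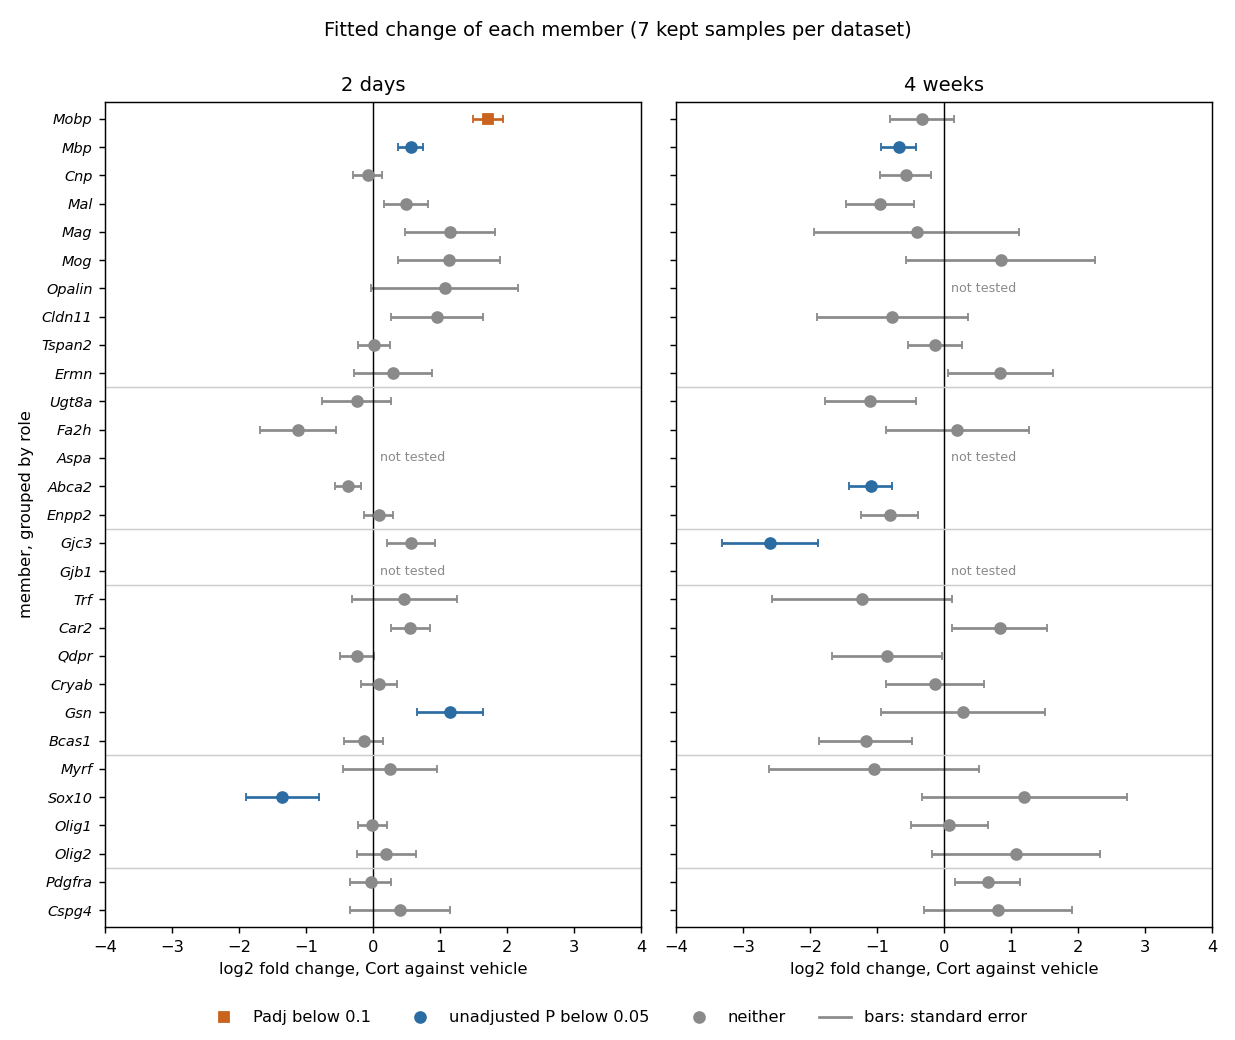
Fitted log2 fold change of Cort against vehicle (x axis) for each member (y axis, grouped by role) over the 7 kept samples at 2 days (left) and at 4 weeks (right), with bars for the standard error. The orange square, Mobp at 2 days, is the member with Padj below 0.1, blue points have an unadjusted P below 0.05, and grey points neither. Of the mature members 16 of 22 lie right of 0 at 2 days and 16 of 21 lie left of 0 at 4 weeks.

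Whether the Cort effect differed between the datasets was tested as an interaction over the 14 kept samples. The datasets also differed in section thickness, slide, laser system, sequencer, read depth and the fast with refeeding. If treatment began at a like age, the mice differed in age at death as well. The length of treatment cannot be told apart from these. Of the 28 members tested 0 passed Padj below 0.1 by edgeR, beside 0.0157% of all 12777 genes, and 4 had an unadjusted P below 0.05, all with a lower Cort effect at 4 weeks (Gjc3, Mbp, Mobp and Mal), beside 2.98% of all genes lower and 6.49% in either direction. The log2 differences, 4 weeks minus 2 days, were -3.16 (standard error 0.87) for Gjc3, -2.05 (standard error 0.58) for Mobp, -1.44 (standard error 0.63) for Mal and -1.24 (standard error 0.35) for Mbp, with Padj from 0.714 to 0.746. Gjc3 passed with DESeq2 (Padj = 0.0626). The difference was below 0 for 19 of the 23 mature members tested and above 0 for the other 4, with a median of -0.86 beside 0.02 over all genes, of which 49.0% were below. It was above 0 for all 5 precursor and lineage members. In the fit over all 20 samples 0 of 27 members and 0 of all 12512 genes (0%) passed the threshold. There 17 mature members were below 0 and 5 above, and the unadjusted P was below 0.05 for Enpp2 and Gjc3 (lower) and for Fa2h and Pdgfra (higher), beside 6.23% of all genes. Of all genes 48.6% were below 0.

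Summing the members gave a level of the mature class per sample. The 24 mature members came to 1260.3, 1343 and 1274 CPM in vehicle samples C02, C04 and C05 and 1496, 1344, 1704 and 1885 CPM in Cort samples C01, C03, C06 and C10, with 2497 and 1799 CPM in the left-out vehicle samples C07 and C09 and 2512 CPM in the left-out Cort sample C08 at 2 days. The lowest kept Cort sample was level with the highest kept vehicle sample, and each left-out sample was above the kept samples of its own group. At 4 weeks the sum came to 1859.6, 2145 and 2076 CPM in vehicle samples C02, C03 and C04 and 996, 1666, 1139 and 1507 CPM in Cort samples C07, C08, C09 and C10, with 1075 and 1345 CPM in the left-out vehicle samples C01 and C05 and 1164 CPM in the left-out Cort sample C06. Here each kept Cort sample was below each kept vehicle sample, and the 3 left-out samples of both groups lay in the range of Cort. Mbp alone made up 9.14% to 45.8% of the sum. The 5 precursor and lineage members lay between 169 and 271 CPM at 2 days and between 100.1 and 508 CPM at 4 weeks. The highest sum was in the left-out Cort sample C06 of the 4 week dataset, where Pdgfra alone gave 477 CPM.

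**Figure D3:**
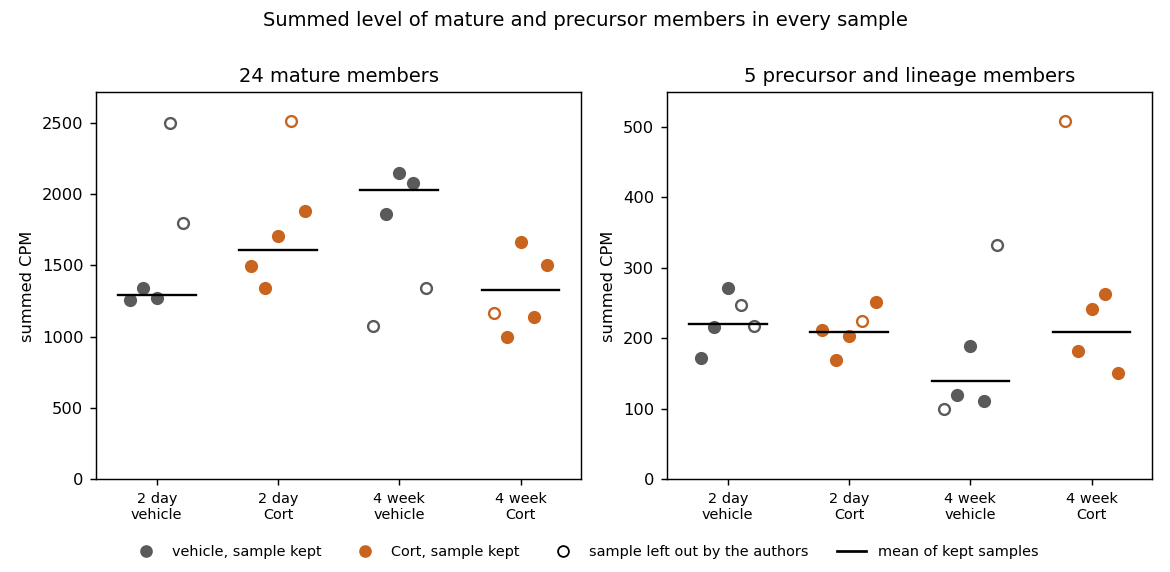
Summed CPM of the 24 mature members (left) and of the 5 precursor and lineage members (right) in each of the 20 samples (y axes start at 0), by group (x axis). Filled points are kept samples, open points samples left out by the authors, and bars the mean of the kept samples. The kept Cort samples at 4 weeks lie between 996 and 1666 CPM of mature members and the kept vehicle samples between 1860 and 2145 CPM.

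The ratio of the mature sum to the precursor and lineage sum at 4 weeks was 15.6, 11.3 and 18.6 in vehicle samples C02, C03 and C04 and 5.45, 6.91, 4.33 and 9.96 in Cort samples C07, C08, C09 and C10, with 10.7 and 4.04 in the left-out vehicle samples C01 and C05 and 2.29 in the left-out Cort sample C06. Each kept Cort sample was below each kept vehicle sample, but the left-out vehicle sample C05 lay below all kept Cort samples. At 2 days the ratio was between 4.70 and 7.31 in the kept vehicle samples and between 7.05 and 8.40 in the kept Cort samples, and the left-out samples were between 8.26 and 11.2. No test was made on these sums.

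**Figure D4:**
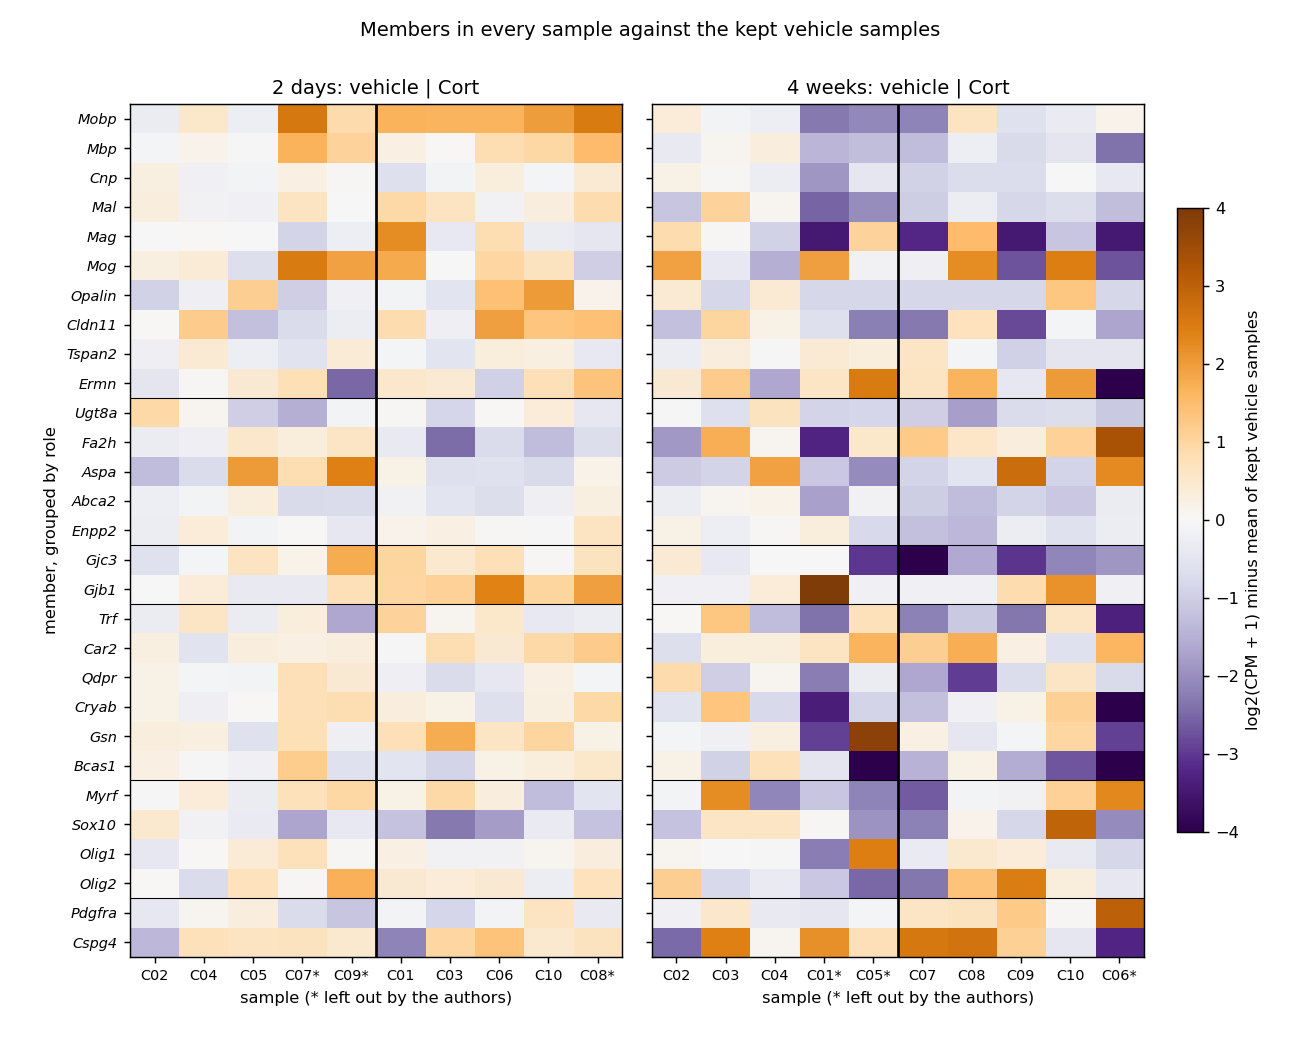
log2(CPM + 1) of the 29 members (rows, grouped by role) in the 10 samples of each dataset (columns), minus the mean of the kept vehicle samples of that dataset; colours run from -4 (purple) to 4 (orange), a black vertical line parts vehicle from Cort, and asterisks mark the samples left out by the authors. Mobp is orange in all 5 Cort samples at 2 days and in the left-out vehicle samples. Gjc3 is purple in all 5 Cort samples at 4 weeks and in the left-out vehicle sample C05.

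How far the mature members varied together was read from pairs of members. After centring on treatment, the median Pearson correlation of log2 CPM over the 231 pairs of mature members was 0.03 across the 10 samples at 2 days, and 9.96% of pairs were above 0.5, beside 10.1% of pairs among all tested genes (1 gene in 5 by identifier was used). At 4 weeks the median was 0.15 over 210 pairs and 19.5% were above 0.5, beside 10.9% among all genes. All these values share libraries and their scaling, and each rests on 10 samples, so they are given as a description. With the mean of the other mature members at 4 weeks, the correlation was 0.84 for Trf, 0.81 for Mbp, 0.77 for Cryab and 0.76 for Mag, and it was -0.44 for Car2 and -0.38 for Enpp2. At 4 weeks Trf was at or below 3 counts in 3 samples, Mag in 4 and Cryab in 2. The part of such floor values in the 4 week correlations was not tested. At 2 days the correlation was 0.68 for Qdpr, 0.61 for Mbp and 0.58 for Mobp, and it was below 0 for 9 of the 22 members, the lowest being -0.34 for Car2, -0.30 for Opalin and -0.28 for Abca2 and Ugt8a.

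Mobp and Mbp, both basic proteins of compact myelin, were compared directly. Across the 10 samples at 2 days Pearson's r of their log2 CPM was 0.77 and Spearman's rho was 0.84, and r was 0.65 without the 2 samples farthest from the median of Mobp. At 4 weeks r was 0.41 and rho 0.50, and r was 0.22 without the 2 farthest samples. After centring on treatment r was 0.87 at 2 days, the highest of the 231 pairs of mature members, and 0.51 at 4 weeks.

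The 10 other genes, of 11016 tested in both datasets, whose log2 CPM followed the mean of the mature members most closely were Cog2, Ccp110, Wasf3, Pkd2, Tnfrsf8, Etv1, Nbr1, Phactr2, P2ry1 and Il11ra1, with a mean of the 2 correlations (10 samples in each dataset, centred on treatment) from 0.86 for Cog2 to 0.76 for Il11ra1. These genes were picked from 11016 by the same values that are given here, so the high values follow in part from the choice. What chance alone would give was not tested. Mbp, which is part of that mean, came at rank 10 with 0.77 and Mobp at rank 56 with 0.66, while Car2 came at rank 10129 with -0.31.

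Oligodendrocyte genes beyond the 29 were read from lists. Of 24 further genes of mature oligodendrocytes, 18 were tested at 2 days, with 7 above vehicle, 11 below and a median log2 fold change of -0.13. Efnb3 and Tppp, a ligand of Eph receptors and a protein that bundles microtubules, were lower at an unadjusted P below 0.05, and 0 passed the threshold. Of all genes 2.83% were lower at that P, 0.065% passed the threshold and 52.1% were above vehicle. At 4 weeks 16 were tested, with 6 above, 10 below and a median of -0.23, and Efnb3, Lpar1 and Sept4 were lower at an unadjusted P below 0.05. The fitted log2 values were -2.60 (standard error 0.85) for Lpar1, a receptor for lysophosphatidic acid, and -2.35 (standard error 0.86) for Sept4, a septin. Again 0 passed the threshold. Of all genes at 4 weeks 1.95% were lower at that unadjusted P, 0.0446% passed the threshold and 51.9% were above vehicle. The kept sums of these 24 genes were 1355 to 1432 CPM with vehicle and 1091 to 1525 CPM with Cort at 2 days, and 1336 to 1486 and 1052 to 1394 CPM at 4 weeks, overlapping in both. Of 13 further precursor genes, 11 were tested at 2 days, with 3 above and 8 below, and 10 at 4 weeks, with 3 above and 7 below. C1ql1 was lower at 2 days and Lhfpl3 and Vcan were lower at 4 weeks at an unadjusted P below 0.05. The shares of all genes are those given above. The 5 precursor and lineage members and the further precursor genes thus did not share a direction at 4 weeks, with medians of 0.81 and -0.77. At 2 days the mature members and the further mature genes did not share a direction either, with medians of 0.38 and -0.13.

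Marker genes of the other cells that a dissected ARC can hold were set beside these results. Of all genes 52.1% were above vehicle at 2 days and 51.9% at 4 weeks. Astrocyte markers summed to 3552 to 3757 CPM in the kept vehicle samples at 4 weeks and 4017 to 5507 CPM in the kept Cort samples, with 6 of 10 markers above vehicle. With the left-out samples the vehicle sums ran from 2579 to 4878 CPM, so the groups then overlapped. At 2 days their sums were 5746 to 6311 and 5312 to 7337 CPM, and reached 10163 CPM in the left-out samples. Endothelial markers were above vehicle for 6 of 7 at 4 weeks (median log2 fold change 1.46; sums of 69.96 to 176 CPM with vehicle and 99.5 to 397 CPM with Cort) and for 2 of 7 at 2 days. Arcuate neuron markers were above vehicle for 8 of 8 tested at 2 days (sums of 1807 to 2333 and 2485 to 3291 CPM) and for 2 of 8 at 4 weeks. With the left-out samples the vehicle sums at 2 days reached 3364 CPM, above each kept Cort sum. General neuronal markers summed to 2576 to 2691 CPM with vehicle and 2880 to 3163 CPM with Cort at 4 weeks, with 3 of 5 above, and to 3213 to 3605 and 3006 to 3618 CPM at 2 days. With the left-out samples their vehicle sums at 4 weeks ran from 2410 to 3274 CPM, and the groups overlapped. Microglial markers were above for 6 of 8 at 2 days (sums of 278 to 327 and 303 to 383 CPM) and 3 of 7 at 4 weeks (228 to 377 and 198 to 336 CPM). Tanycyte and ependymal markers were below vehicle for 4 of 4 tested at 2 days (36.6 to 81.3 and 17.8 to 58.2 CPM) and 3 of 3 at 4 weeks (110.2 to 313 and 64.5 to 157 CPM). The part of these cells in the results on the members was not tested. Of these lists of other cell types, only Agrp at 2 days and Npy at 4 weeks and in the interaction passed Padj below 0.1. In these comparisons 0.065%, 0.0446% and 0.0157% of all genes passed it. Pituitary markers summed to at most 39.5 CPM and 5.5 CPM, and their 3 genes did not pass the filter in either dataset.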

How the data were processed

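Total RNA of laser-captured ARC was amplified and sequenced as single reads of 50 bases. Per the labels and the methods of the study, the authors mapped reads to GRCm38 with Rsubread and counted them per gene with featureCounts, and the deposited values used here are raw read counts per gene and sample. The submitters' processing notes also name CASAVA 1.7 and DESeq2. The deposited tables of normalised counts served only to pair gene identifiers with symbols, and the columns of the authors' own fold changes and p-values were not used.

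The labels give the groups, but not which column of a count table is which sample, so columns were assigned to groups by the study's own sample table. The samples kept were those the study kept. Counts were analysed within each dataset with edgeR 4.0.16 (TMM scaling, filterByExpr, quasi-likelihood test, Benjamini-Hochberg adjustment, Padj below 0.1) in R 4.3.3, and CPM were scaled by TMM over the 10 samples of a dataset. The interaction was fitted over both datasets. Alternatives were all 10 samples, limma 3.58.1 voom with sample quality weights, DESeq2 1.42.0, other scalings and filters, and leaving out each sample. Exact permutation tests were 2-sided, and 3 against 4 samples cannot go below P = 0.0571. Of these steps, only the edgeR comparison of Cort with vehicle within a dataset was tested on simulated data. Promoters came from RefSeq (GRCm38.p6).

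Members and gene lists were chosen with earlier results of these data known. Values in every sample are given for 14 members: those with Padj below 0.1, the 3 of each dataset with the largest fitted change among those with unadjusted P below 0.05, and representatives of each role. The other members are given by their range.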

Additional observations from a re-analysis of the deposited data

Results flagged for a closer look

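In 5 of the 64 groups of 5 samples that were searched among the 14 members given with values in every sample and the classes, 1 sample lay far from the other 4 by Dixon's test on log2 CPM (prior count 2). Chance alone gives about 1 in 20 such groups. Mag measured 3.04 CPM in the left-out vehicle sample C07 at 2 days, against 5.42 to 6.68 CPM in the other vehicle samples. Cspg4 measured 2.49 CPM in the kept vehicle sample C02 at 2 days, against 11.4 to 13.8 CPM in the others. Cspg4 measured 1.02 CPM in the kept Cort sample C01 of the same dataset, against 11.5 to 21.8 CPM in the others. Abca2 measured 67.0 CPM in the left-out vehicle sample C01 at 4 weeks, against 188 to 256 CPM in the others. Gjc3 measured 12.6 CPM in the left-out vehicle sample C05 at 4 weeks, against 82.8 to 147.8 CPM in the others. The same search on CPM itself, chosen after seeing the data, found 10 such groups, in 9 of which the far sample was the highest. These were Mobp in vehicle C07 (326 CPM) and Mag in Cort C01 (34.7 CPM) at 2 days, and at 4 weeks Gsn (103 CPM) and Olig1 (262 CPM) in vehicle C05, Myrf in vehicle C03 (28.1 CPM), Mag in Cort C08 (30.7 CPM), Trf (14.4 CPM) and Sox10 (41.2 CPM) in Cort C10 and Pdgfra in Cort C06 (477 CPM). The remaining group was that of Cspg4 in vehicle C02, given above.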

How the results depend on the processing

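No paired analysis was possible because the columns of the count tables do not carry the replicate numbers of the sample titles. The number of all genes past the threshold at 2 days was 8 over the kept samples, 2 over all 10 samples, 4 over all 10 with voom, 54 with DESeq2, 24 without a filter, and 1 (without vehicle C02) to 16 (without Cort C06) when a sample was left out. At 4 weeks it was 5, and 1 over all 10 samples, 43 with DESeq2, 3 with upper quartile scaling, 9 without a filter, and 0 to 10 when a sample was left out, with 0 for vehicle C03 or C04 or Cort C08, C09 or C10, and 10 for Cort C07. For the interaction it was 2, and 0 over all samples with edgeR or voom, 39 with DESeq2, and 0 to 3 when a sample was left out. The members past the threshold went from 1 to 0 over all 10 samples at 2 days, and from 0 to 1 with DESeq2 at 4 weeks and in the interaction. Mature members below vehicle at 2 days went from 6 to 10 over all 10 samples. Mature members above vehicle at 4 weeks went from 5 to 3 with at least 10 counts in every sample and ranged from 4 to 8 without a sample, with 8 for vehicle C03. Mature members above 0 in the interaction went from 4 to 2 with that filter and ranged from 3 to 7.

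Over all 10 samples, among the members given with values in every sample, the log2 fold change changed sign at 2 days for Mog (-0.62), Abca2 (0.038), Myrf (-0.33) and Pdgfra (0.22), at 4 weeks for Mobp (0.31), Gsn (-1.95), Myrf (0.52) and Olig1 (-0.89), and in the interaction for Mog (0.89), Myrf (0.84) and Olig1 (-0.75). Among the other members it did so at 2 days for Olig2 (-0.20), Cryab (-0.064) and Tspan2 (-0.048), at 4 weeks for Ermn (-0.27) and Cryab (0.051), and in the interaction for Ermn (-0.89), Car2 (-0.19) and Cryab (0.12). With voom over all 10 samples it did so, among the members given with values in every sample, at 2 days for Myrf (-0.20), Olig1 (0.010), Pdgfra (0.00988) and Cspg4 (-0.16), at 4 weeks for Mog (-0.93), Myrf (0.41) and Olig1 (-0.024), and in the interaction for Myrf (0.72) and Olig1 (-0.030). Without a single sample, among those members and Fa2h, the 2 day value ranged from -0.62 to 0.35 for Ugt8a, -0.12 to 0.55 for Myrf, -0.20 to 0.21 for Olig1, -0.34 to 0.16 for Pdgfra and -0.051 to 0.80 for Cspg4. The 4 week value ranged from -2.997 to 0.18 for Mag, -0.11 to 0.48 for Gsn, -1.85 to 1.04 for Myrf, -1.12 to 1.60 for Sox10, -0.078 to 0.20 for Olig1 and -0.31 to 1.56 for Fa2h, and the interaction from -0.88 to 1.58 for Mog, -2.08 to 0.78 for Myrf, -0.12 to 0.29 for Olig1 and -0.15 to 2.47 for Cspg4. None of these members had been past the threshold at the comparison named. The cause was not tested. At 4 weeks 16 members had a sample at or below 3 counts.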
